A study of Caenorhabditis elegans with 4 samples.

Results

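The fatty acid elongase family of Caenorhabditis elegans, elo-1 to elo-9, was examined in whole gravid adults of a mutant strain and of the wild type. The members were the rows that carry these 9 names in the authors' table of 18468 genes and 170 repeat elements, and all 9 were present. Polyadenylated RNA was sequenced from 2 libraries of N2, the laboratory wild type, and 2 libraries of the strain YY1449, which carries a mutation in rde-3. The product of that gene, also called mut-2, is an enzyme of RNA interference that extends RNAs with poly(UG) tails. The labels give no allele and no ages in days, and each genotype is a single strain, so rde-3 and any other difference between the strains cannot be told apart. In whole animals, fewer cells of a type and less RNA per cell cannot be told apart either.

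Elongases lengthen fatty acids in the endoplasmic reticulum. Each catalyses the condensation of an acyl-CoA with malonyl-CoA, and a ketoreductase, a dehydratase and an enoyl reductase then complete the cycle. In C. elegans, ELO-1 lengthens the polyunsaturated acids that become arachidonic and eicosapentaenoic acid, and ELO-2 acts on palmitic acid and on polyunsaturated acids. ELO-5 and ELO-6 make the branched iso fatty acids, which the worm needs for growth and builds into its sphingolipids. The other members have been less studied and are described here by name only.

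The deposited table gives 1 mean per gene over the 4 libraries, in read counts divided by a size factor for each library, which sets aside differences in depth. The reads behind each mean were worked out from it, because a mean printed to 15 digits is met by few combinations of whole reads. For each of the 9 elongases exactly 1 combination also gave back the deposited log2 fold change. The replicate number of each library is not known, so the N2 libraries are called A and B and the YY1449 libraries C and D. Adjusted p-values are the authors', at a threshold of 0.05, and a positive log2 value is taken to mean more RNA in YY1449, because the comparison is named with the mutant first.

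The 2 members that changed by the authors' test, elo-6 and elo-1, were both lower in YY1449. In both genotypes elo-6 had the highest mean level per length and elo-7 and elo-8 the lowest. At an unadjusted p under 0.05 the deposited test lists 1 higher member, elo-4, and 4 lower ones, which include elo-5 and elo-9. Of these, elo-9 had the largest p and ranked 4607 of 18638 features by size of the test statistic. Such p-values were thus common among all features, and nothing is read from this count. The authors called 3254 of 18638 features in either direction, which is 17.5%, with 9.42% higher and 8.04% lower. Among features with a mean of at least 1000, which 5 elongases reach, 47% were called, 32.5% higher and 14.5% lower. With 2 calls among 9 genes, nothing is read from the family's share against these backgrounds. In all 9 genes the YY1449 libraries lay on one side of the N2 libraries, 7 times below and 2 times above. Such a separation was also the rule among 9027 genes with a mean of 10 to 1000, at 66.2%. There YY1449 lay below N2 in 3381 genes and above in 2592. Of the elongases only elo-4 and elo-9 have a mean in that range. The separation of elo-7 rests on the size factors alone, as its nearest libraries, B and C, had 6 reads each.

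**Figure D1:**
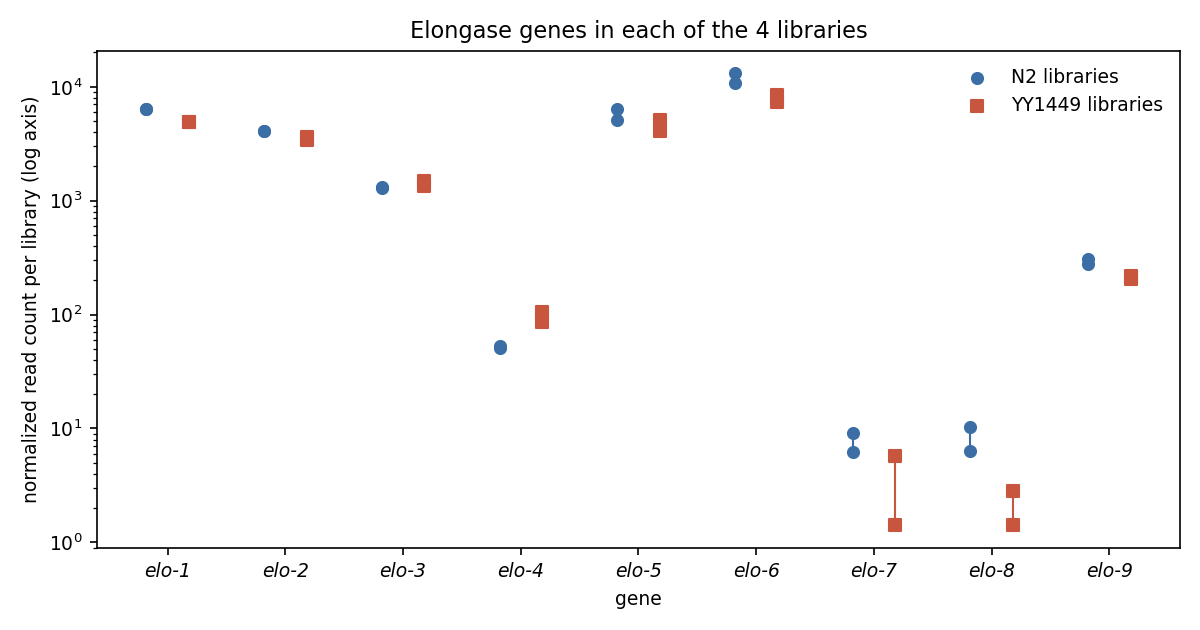
Normalized read count of each elongase gene in each library on a log axis, with circles for the N2 libraries, squares for the YY1449 libraries and a line joining the libraries of a group. The YY1449 squares lie below the N2 circles for 7 genes and above them for elo-3 and elo-4, with gaps that are small beside the range of levels in the family.

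The branched-chain elongase gene elo-6 (WBGene00001244; WBcel235 chromosome IV, 5386629 to 5388559, minus strand) had the highest level of the family and the smallest adjusted p. Its normalized counts were 13119.7 and 10715 in the N2 libraries and 7396 and 8484 in the YY1449 libraries. The lower N2 library thus stood above the higher YY1449 library. The authors' deposited table gave it a log2 fold change of -0.59 ± 0.13 (SE; adjusted p = 0.000178 across all features), which puts YY1449 at 66.6% of N2. Its 95% interval ran from -0.85 to -0.33. Without 1 library at a time, the log2 ratio of its group means stayed between -0.72 and -0.43. The fall remained a call after a trend of the log2 values with transcript length was removed (log2 -0.40, adjusted p = 0.025 with the authors' deposited standard errors).

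The other branched-chain elongase gene, elo-5 (WBGene00001243; chromosome IV, 5374616 to 5377117, minus strand), did not pass. Its normalized counts were 6361 and 5149 in N2 and 4065 and 5094 in YY1449, so the nearest libraries of the groups almost touched. By the authors' deposited table its log2 fold change was -0.33 ± 0.15 (SE; 95% interval -0.62 to -0.04; adjusted p = 0.111 across all features). The interval is not adjusted for the number of features, which is why it can leave out 0 while the adjusted p misses the threshold. Without library A the log2 ratio of group means was -0.17, and without library D it was -0.50. F41H10.3, on the opposite strand, shares 162 bases of exon with elo-5 and stood at log2 0.32 ± 0.13 by the authors' deposited table (adjusted p = 0.0909). The library kit keeps no strand, and how reads from shared bases were assigned is not known.

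The elo-5 and elo-6 genes lie on the same strand of chromosome IV and varied in the same direction between libraries of one genotype. Library A was above library B by 0.30 for elo-5 and 0.29 for elo-6 on the log2 scale. Library D was above library C by 0.33 and 0.20. For comparison, the median gap was 0.13 between the N2 libraries and 0.17 between the YY1449 libraries over 2588 genes with a mean of 300 to 1000. Only 8.35% of those genes had an N2 gap as large as that of elo-5, against 18.7% for its gap in YY1449. For elo-6 the shares were 9.85% in N2 and 44.0% in YY1449. However, elo-5 and elo-6 have higher means (5167 and 9929) than the genes compared. The median standard error of log2 was 0.216 at means of 100 to 1000 and 0.136 at 1000 to 10000. These shares therefore do not show how usual such gaps are at the level of elo-5 and elo-6. The level of elo-6 per kilobase of exon was 2.05 and 2.07 times that of elo-5 in N2 and 1.81 and 1.66 times in YY1449. The ratio of the 2 genes was lower in both YY1449 libraries than in both N2 libraries, and this difference was not tested.

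The polyunsaturated fatty acid elongase gene elo-1 (WBGene00001239; chromosome IV, 9526366 to 9528336, plus strand) fell with little spread between libraries. Its normalized counts were 6320.45 and 6371 in N2 and 4915 and 4921 in YY1449. Libraries of one genotype differed by 0.01 and 0.002 on the log2 scale, far less than the gap between genotypes. A gap between single libraries is a poor measure of spread, and the deposited standard error was far larger than both gaps. The authors' deposited table gave a log2 fold change of -0.37 ± 0.11 (SE; 95% interval -0.59 to -0.15; adjusted p = 0.0082 across all features), or 77.5% of N2. After removal of the length trend its log2 value was -0.22 and the call was lost (adjusted p = 0.19 with the authors' deposited standard errors). Genes with short transcripts were lower on average in YY1449, and the trend stood at -0.14 at the length of elo-1.

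The authors' p-values assume a normal distribution, and no call in the table outlasts a t distribution with 2 degrees of freedom. That setting therefore cannot single out the calls for elo-6 and elo-1. Under a t distribution (2 degrees of freedom) both had an adjusted p of 0.682, the smallest in the table, where 0 of 18638 features passed and 1137 had an unadjusted p under 0.05. The unadjusted p was then 0.0478 for elo-6 and 0.0804 for elo-1.

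The gene elo-2 (WBGene00001240; chromosome IV, 17466062 to 17467408, minus strand), for the elongase of palmitic acid, was slightly lower in YY1449 without passing the test. Its normalized counts were 4125 and 4124 in N2 and 3655 and 3401 in YY1449. The N2 libraries were nearly equal and both YY1449 libraries lay below them. The authors' deposited table gave a log2 fold change of -0.22 ± 0.12 (95% interval -0.45 to 0.01; adjusted p = 0.208), so any level from 73% to 100.4% of N2 lies within that interval.

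**Figure D2:**
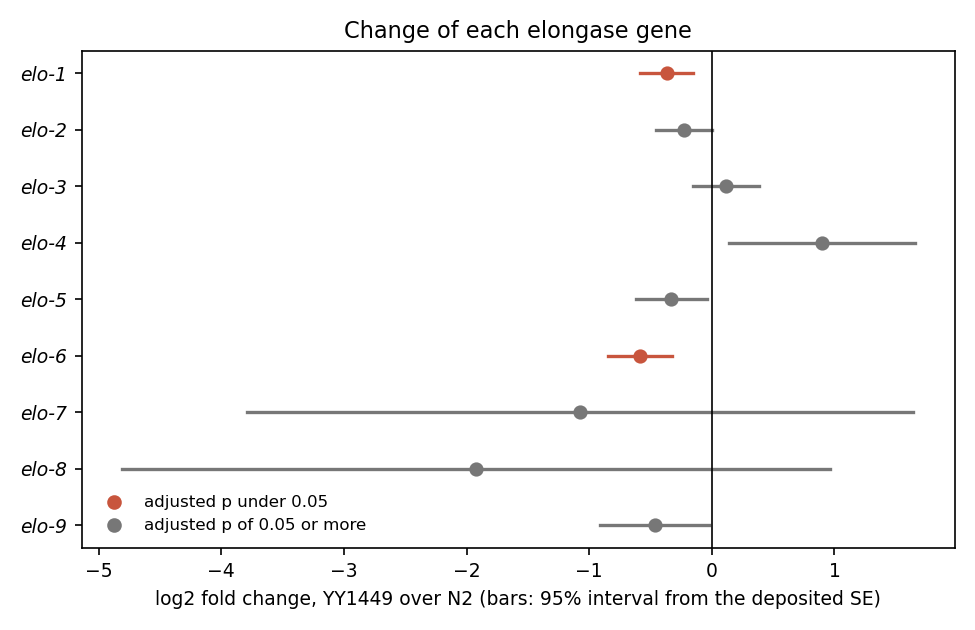
Log2 fold change of YY1449 over N2 for each elongase gene in the authors' deposited table, with bars for the 95% interval from the deposited standard error. The intervals of elo-6 and elo-1, the genes with an adjusted p under 0.05, lie below 0, and those of elo-7 and elo-8 span several log2 units.

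Among the less studied members, elo-3 (WBGene00001241; chromosome IV, 7237718 to 7240488) had normalized counts of 1295 and 1317 in N2 and 1484 and 1346 in YY1449. Its log2 fold change in the authors' deposited table was 0.12 ± 0.14 (95% interval -0.15 to 0.39; adjusted p = 0.733). Of the 5 abundant elongases it alone had a positive value.

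The gene elo-9 (WBGene00001247; chromosome II, 14959526 to 14964108) had normalized counts of 281 and 306 in N2 and 206 and 219 in YY1449. The groups stood apart, but the gene did not pass, with a log2 fold change of -0.46 ± 0.23 in the authors' deposited table (95% interval -0.91 to -0.02; adjusted p = 0.166).

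The gene elo-4 (WBGene00001242; chromosome III, 9332269 to 9334274) had the highest positive value of the family. Its normalized counts were 50.8 and 52.9 in N2 and 106 and 86.3 in YY1449, from 123 reads in N2 and 173 in YY1449. The authors' deposited table gave a log2 fold change of 0.90 ± 0.39 (95% interval 0.14 to 1.66; adjusted p = 0.0987), which did not pass. With the length trend removed its value was 1.08 and its adjusted p 0.0408. C40H1.10, a gene without a symbol on the opposite strand, shares 104 bases of exon with elo-4 and had a mean of 5.298 normalized counts, against 74.01 for elo-4. The more abundant ufc-1 (mean 128), also on the opposite strand, shares 16 bases of exon with elo-4 and stood at log2 0.09 ± 0.30 by the authors' deposited table. For elo-3 the shared stretch is 44 bases, with gstk-2 (mean 11.5).

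The remaining members were close to the limit of detection. For elo-7 (WBGene00001245; chromosome IV, 9529947 to 9531400) 13 and 6 reads were counted in N2 and 6 and 1 in YY1449, and for elo-8 (WBGene00001246; chromosome III, 11230377 to 11232069) 9 and 10 reads in N2 and 3 and 1 in YY1449. The authors' deposited table gave log2 values of -1.07 ± 1.39 (adjusted p = 0.769) for elo-7 and -1.93 ± 1.47 (adjusted p = 0.495) for elo-8. F56H11.2, on the opposite strand, shares 64 bases of exon with elo-7 and had a higher mean, 11.6 against 5.62 normalized counts, so reads of elo-7 cannot all be told apart from its reads. From the summed reads of each group, scaled by the size factors, the level in YY1449 was 0.498 times that in N2 for elo-7 (95% exact Clopper-Pearson counting interval 0.177 to 1.24) and 0.284 times for elo-8 (0.0704 to 0.856). These intervals cover counting error only and leave out the spread between animals, and the deposited test, which also counts a spread between libraries, called neither gene at this depth.

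Per kilobase of exon, the order of mean levels was elo-6, elo-5, elo-1, elo-2, elo-3, elo-9, elo-4, elo-8 and elo-7. The first had 10722 normalized counts per kilobase, the next 5605, 5308 and 3690, then 869, 218 and 78.6, and the last 5.51 and 4.92. The libraries of elo-5 and elo-1 overlapped within each genotype, as did those of elo-8 and elo-7. Every other neighbouring pair in the order was separate within both genotypes. The genes elo-1, elo-2, elo-5 and elo-6 supplied 91.7% to 94.8% of the family's normalized counts in each library. The sum over the 9 genes, not scaled by length, was 31568 and 28053 in N2 and 21836 and 23555 in YY1449, or 76.1% of N2. As elo-6 alone gave 36.6% to 44.1% of the level per kilobase, such sums follow elo-6 more than any other member.

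**Figure D3:**
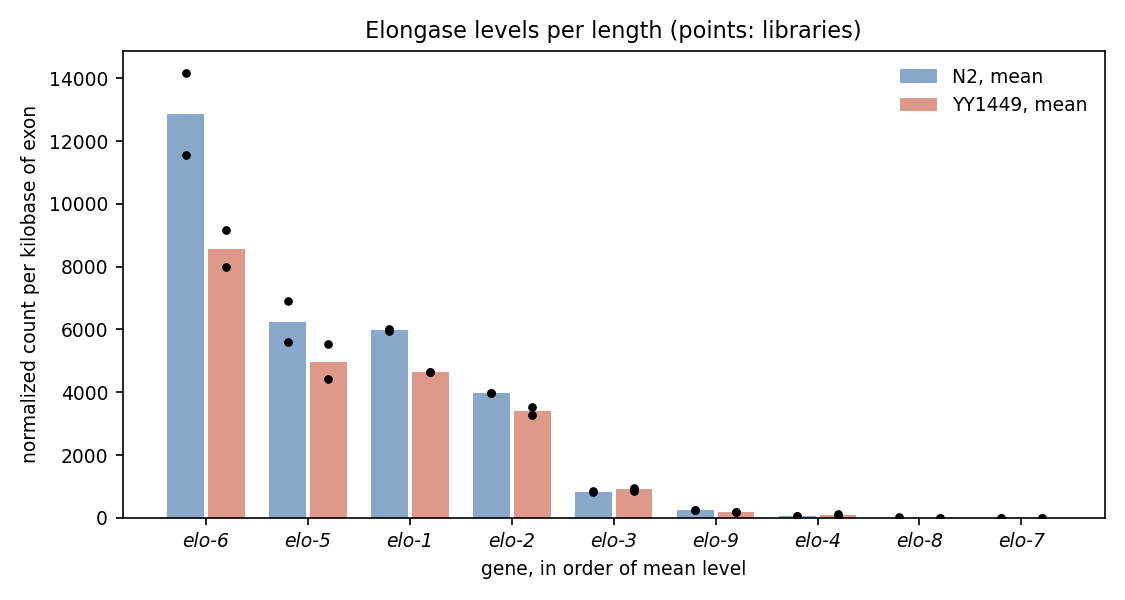
Normalized count per kilobase of exon for each elongase gene, in order of mean level, with bars for the mean of each genotype and points for the 2 libraries. The bars of elo-6 are the highest in both genotypes, at 12870 in N2 and 8574 in YY1449, and those of elo-4, elo-8 and elo-7 are barely visible on this scale.

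On the plot of all features, the members' log2 values lay within the spread of genes of similar level. The median log2 value was -0.37 over the 9 elongases, beside -0.02 over all features tested. Over the 7 elongases with a mean of at least 10 it was -0.33, beside 0.003 over all features with such a mean. A negative log2 value was listed for 34.8% of all features at means of at least 1000, and so had 4 of the 5 elongases at that level. By size of the deposited test statistic elo-6 ranked 1083 and elo-1 ranked 2115 among the 18638 features.

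**Figure D4:**
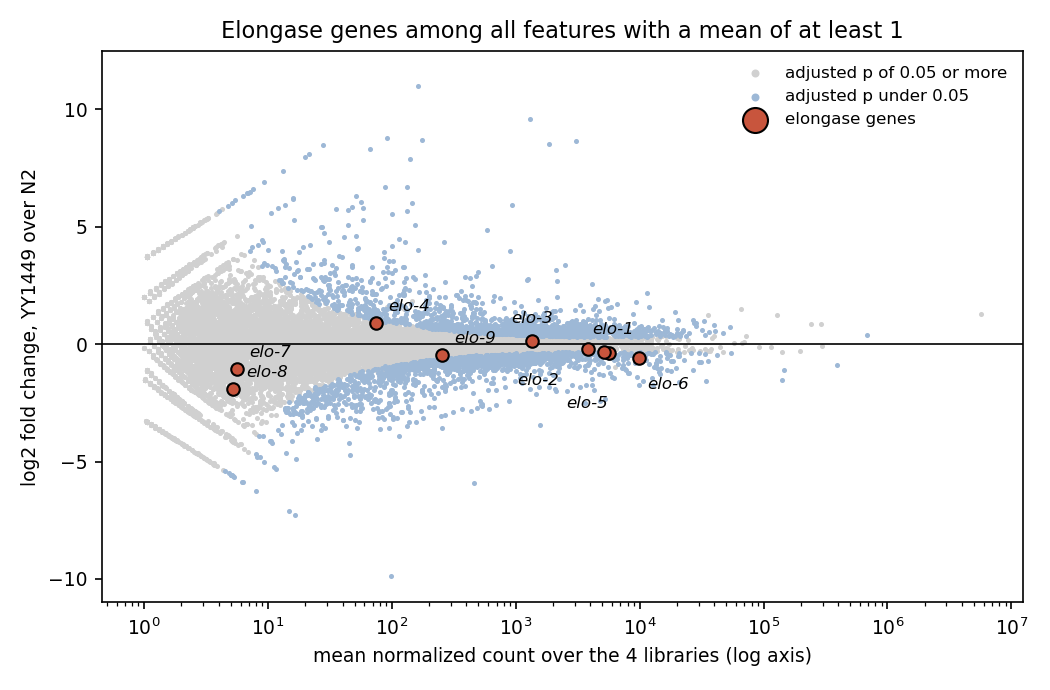
Log2 fold change of YY1449 over N2 against the mean normalized count on a log axis, for all features with a mean of at least 1, with the elongase genes marked. The members lie within the cloud of other genes, and the 5 most abundant ones are between -0.59 and 0.12 on the log2 axis.

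Of the 9 genes, 6 lie on chromosome IV, 2 on III and 1 on II. The genes elo-1 and elo-7 are next to each other on the same strand, 1610 bases apart, yet their levels per kilobase were 5308 and 4.92. Among 15 measured protein-coding genes that flank a member, 4 were lower in YY1449 and 0 were higher by the authors' deposited adjusted p. Of the 15, 11 had a mean of at least 10. Over all features 8.04% were called lower and 9.42% higher, and at means of at least 1000 the shares were 14.5% and 32.5%. The count was not tested against these shares, and nothing is read from it. The 4 lower ones were htp-1 beside elo-6 (log2 -0.82 ± 0.14), which encodes a protein of meiotic chromosome axes, C33A12.1 beside elo-1 (-0.79 ± 0.17), fbl-1, a fibulin gene beside elo-7 (-0.63 ± 0.17), and emb-9, a type IV collagen gene beside elo-4 (-0.34 ± 0.12), all in the authors' deposited table.

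The list for fatty acid synthesis and the elongation cycle mixes cycle partners of the elongases with genes of acid activation and malonyl-CoA breakdown. Of its 7 genes 0 were called by the deposited Wald test and 0 had an unadjusted p under 0.05. Over all features 17.5% were called, and 47% at means of at least 1000, which every gene of the list but mlcd-1 (mean 440) reached. Both shares are for an adjusted p under 0.05, and nothing is read from either count. The median log2 value of the 7 genes was -0.04, which is not a value of the cycle alone. These 7 include let-767, for the ketoreductase (log2 -0.20 ± 0.11, adjusted p = 0.255), pod-2, for the acetyl-CoA carboxylase that makes malonyl-CoA (0.20 ± 0.11, adjusted p = 0.206), and fasn-1, for fatty acid synthase (-0.05 ± 0.11, adjusted p = 0.899), in the authors' deposited table. After removal of the length trend pod-2 changed sign (-0.11) and fasn-1 passed as lower (-0.35, adjusted p = 0.018 with the authors' deposited standard errors), so the absence of a call for fasn-1 depends on that setting.

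The desaturases, which place double bonds in the acids that elongases lengthen, went in both directions. Of 7 genes 1 was higher and 2 were lower, with a median log2 value of 0.10. Over all features 9.42% were called higher and 8.04% lower, and at means of at least 1000 the shares were 32.5% and 14.5%, so nothing is read from the count. The gene fat-2, for the enzyme that turns oleic into linoleic acid, rose by 0.62 ± 0.10 on the log2 scale in the authors' deposited table (adjusted p = 1.6e-07). The gene fat-3, whose enzyme makes the substrates that ELO-1 lengthens, fell by 0.64 ± 0.13 in the authors' deposited table (adjusted p = 2.5e-05). Its normalized counts were 2191 and 2318 in N2 and 1514 and 1368 in YY1449, so both fat-3 and elo-1 were lower there. The stearoyl-CoA desaturase gene fat-7 had counts of 3138 and 2590.3 in N2 and 245 and 293 in YY1449, a far larger difference than that of any abundant elongase.

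**Figure D5:**
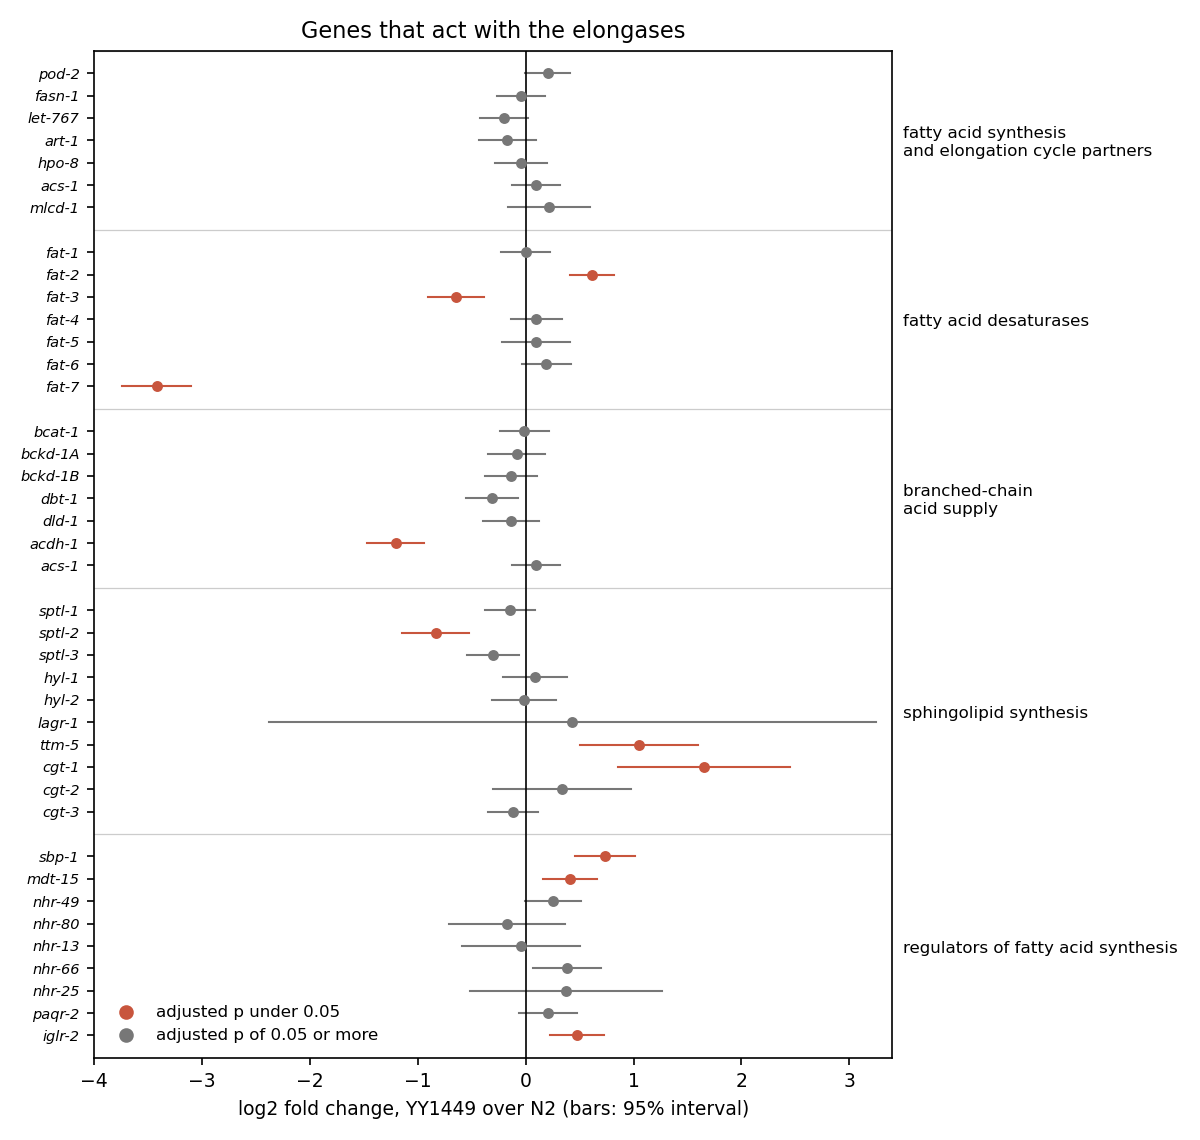
Log2 fold change of YY1449 over N2, with 95% intervals, for the genes of 5 lists that act with the elongases. The genes with an adjusted p under 0.05 number 6 to the right of 0 and 4 to the left, and the list of synthesis and cycle partners has none.

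Of 7 genes of branched-chain metabolism, 6 of which supply or activate the precursors of the iso acids, 1 passed. None of those 6 was called by the deposited Wald test, 1 had an unadjusted p under 0.05, and their log2 values ran from -0.31 to 0.09. The gene that passed was acdh-1, for an acyl-CoA dehydrogenase, an enzyme of acyl-CoA breakdown rather than of supply, which fell by 1.20 ± 0.13 on the log2 scale in the authors' deposited table (adjusted p = 4.3e-17). The 7 genes had a median log2 value of -0.14. Among 10 genes of sphingolipid synthesis, in which the iso acids are used, 2 were higher and 1 was lower, with a median of 0.04. Over all features 9.42% were called higher and 8.04% lower. At means of at least 1000, which all 7 branched-chain genes reach, the shares were 32.5% and 14.5%. Nothing is read from the count of either list. The serine palmitoyltransferase gene sptl-2 fell by 0.83 ± 0.16. The ceramide glucosyltransferase gene cgt-1 (1.66 ± 0.41) and the dihydroceramide desaturase gene ttm-5 (1.05 ± 0.28) rose in the authors' deposited table.

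Of 9 measured regulators of fatty acid synthesis 3 were higher and 0 were lower, with a median log2 value of 0.38. All 3 are among the 6 regulators with a mean of at least 1000, a range in which 32.5% of all features were called higher, so nothing is read from the count. The gene sbp-1, for the worm's SREBP, a transcription factor of lipid synthesis, had normalized counts of 795 and 806 in N2 and 1304 and 1366 in YY1449. It rose by 0.74 ± 0.14 on the log2 scale in the authors' deposited table (adjusted p = 5.6e-06). The Mediator subunit gene mdt-15 (0.41 ± 0.13, adjusted p = 0.0094) and iglr-2, which acts with PAQR-2 in membrane fluidity (0.47 ± 0.13, adjusted p = 0.0022), rose in the authors' deposited table. Both of these calls were lost after removal of the length trend (adjusted p = 0.664 and 0.182 with the authors' deposited standard errors). By the authors' deposited table the nuclear receptor gene nhr-49 stood at log2 0.25 ± 0.13 (adjusted p = 0.205). Over the 5 lists 29 of 39 measured genes did not pass, with log2 values from -0.31 to 0.43.

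Marker genes of the tissues in whole adults changed beside the elongases, and their part in the elongase values was not tested. Of 8 intestine markers, the tissue of yolk and fat synthesis, 1 was higher and 1 was lower, and their summed group means, set by the deposited means and log2 values, were 91730.1 in N2 and 95396 in YY1449. Most of that sum is the protease gene asp-1, and the other 7 summed to 24775 and 23073. Of 8 hypodermis markers 3 were higher and 1, the abundant adult collagen gene col-19, was lower, with sums of 25887 and 13491 with col-19 and 1481 and 2273 without it. Of 6 muscle markers 5 were lower, and their sums were 34547 and 35876 in the N2 libraries and 12749 and 11872 in the YY1449 libraries. All 6 oocyte markers were higher (sums of 118758 and 179354), 5 of 6 sperm markers were lower (820 and 224), 0 of 6 neuron markers passed (3 at an unadjusted p under 0.05; sums of 1705 and 1879, and of 720 and 614 without snb-1), and of 6 yolk genes 1 was higher and 2 were lower (1896674 and 1652849). Without vit-6, which was the higher one, the other 5 yolk genes summed to 1306382 in N2 and 869159 in YY1449. No marker on these lists had a mean under 1. Over all features 9.42% were called higher and 8.04% lower, and at means of at least 1000 the shares were 32.5% and 14.5%. The marker counts were not tested against these shares.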

How the data were processed

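Per the labels' protocols, polyadenylated RNA was selected on oligo(dT) beads and libraries were made with Nextera XT, which keeps no strand. Listed in the submitters' processing notes are STAR 2.7.0a, SAMtools 1.3.1, cutadapt 1.14 and Trim Galore 0.4.4, with the builds WBcel235 and ce11; for the counting tool and the model, nothing is given in the sources used here. Per the file headers and values, the deposited signal is a mean of normalized counts, the deposited log2 is a fold change with its standard error, and the deposited score is their Wald ratio. The deposited p-value column is its two-sided normal p, and the adjusted one is the Benjamini-Hochberg adjustment over 18638 features. The smaller table holds the 3254 features with an adjusted p under 0.05.

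Steps between the lowest means gave size factors of 1.42 and 0.963 for the libraries taken as N2 and 1.06 and 0.707 for those taken as YY1449, by the sign of log2 where a gene had reads in 1 library only. Total depth per library is unknown. For means up to 10000, whole reads were sought that sum to the mean and, in a 2-group negative binomial fit with the dispersion set by the deposited standard error, give back the deposited log2 within 1e-05 (0.001 for means under 10). From a mean of 10 upward, the group split was searched within 10% of that set by the log2 value. For each elongase 1 to 288 combinations met the mean and 1 met both. Of 9445 genes with a mean of 10 to 1000, 9027 had 1 solution. In data simulated for this comparison at means of 10 to 1000, 583 of 600 genes had 1 solution, and it was right in 583. The simulation used the same kind of fit as the recovery. Only elo-4 and elo-9 lie in that range of means, so the recovery was not tested at the levels of the other elongases. The reads were used for description only. Libraries of one genotype differed beyond counting noise (mean chi-square per gene of 3.11 in N2 and 4.66 in YY1449, against 1 for counting alone).

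The median standard error of log2 was 1.82 at means of 1 to 10, 0.607 at 10 to 100, 0.216 at 100 to 1000 and 0.136 at 1000 to 10000. The design text calls the libraries biological replicates. A deposited p-value is not a measure of a gene's own spread between these libraries alone. For elo-1 the libraries of one genotype differed by 0.01 in N2 and 0.002 in YY1449 on the log2 scale, yet its standard error was 0.11. How the model set that error is not known. Coordinates, exon lengths and neighbours are from Ensembl release 115 (WBcel235), in which 17262 of 18468 genes were matched. Intervals are 95% from the deposited standard errors. The text names all members, the called genes of 5 pathway lists, a few fixed others and flanking genes; 7 marker lists were added. A likeness of pattern was not computed, as there is 1 contrast. Members and lists were chosen with earlier results of these data known. Alternatives were p adjusted over genes only, a mean of at least 10, a t distribution with 2 degrees of freedom, recentring on genes with a mean of at least 100, removal of a lowess trend with exon length, a log2 of at least 1, an adjusted p under 0.01, a pseudocount of 1 and leaving out each library. No sequences were used here. Python 3.11.15, scipy 1.17.1 and statsmodels 0.14.6 were used.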

Additional observations from a re-analysis of the deposited data

How the results depend on the processing

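Under a t distribution (2 degrees of freedom) no feature in the table kept its call, so this setting cannot tell calls apart. The calls for elo-1 (log2 -0.37) and elo-6 (log2 -0.59) were lost with the rest, each with an adjusted p of 0.682. The count of lower elongases went from 2 to 0. For genes of the 5 pathway lists the counts went from 6 to 0 (higher) and from 4 to 0 (lower). With the length trend removed elo-1 lost its call (log2 -0.22, adjusted p = 0.19 with the authors' deposited standard errors), elo-4 gained one (log2 1.08, adjusted p = 0.0408), the elongases were 1 higher and 1 lower, the pathway lists had 4 higher and 7 lower genes, and pod-2 changed sign (log2 -0.11). With a log2 of at least 1 also required, 0 elongases were called. Adjustment over genes only, a mean of at least 10, recentring (a shift of 0.05) and an adjusted p under 0.01 changed no call of a member, while lower genes of the pathway lists went from 4 to 5 at a mean of at least 10 and to 6 after recentring. elo-7 and elo-8 have no value under a mean of at least 10.

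Without 1 library at a time, the log2 ratio of group means ranged from -0.37 to -0.36 for elo-1, -0.28 to -0.17 for elo-2, 0.04 to 0.18 for elo-3, 0.73 to 1.03 for elo-4, -0.50 to -0.17 for elo-5, -0.72 to -0.43 for elo-6, -2.44 to -0.44 for elo-7, -2.56 to -1.56 for elo-8 and -0.53 to -0.40 for elo-9, each with its main sign. These ratios have no test, and their signs could not change, because the libraries of the groups did not overlap for any member. No paired analysis was possible because the replicate numbers of the libraries behind the recovered reads are not known. Depth limits elo-7 and elo-8, with 26 and 23 reads in all.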
